A study of Homo sapiens with 4 samples.

Results

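The actomyosin cytoskeleton and focal adhesion genes of the uveal melanoma line 92.1 were compared between resistant and parental cells. Members were chosen by gene symbol. The set took all myosin heavy chain, light chain and unconventional myosin genes, the tropomyosins, calponins, alpha-actinins, filamins, Arp2/3 subunits and PDLIM genes, and 15 named genes for actins, transgelins, adhesion proteins, plastins and ERM proteins. Of 11650 genes with a value, 62 were members, and a further 37 protein-coding genes of these names were not analysed here, among them MYH11, MYLK and PDLIM4. The tested cells were a resistant derivative of 92.1 (2 libraries), set against the parental line (2 libraries). The labels call the derivative resistant without naming the agent, dose or duration, and a cell line field that counts upwards from library to library was read as 92.1 after the titles. Whether replicates were grown separately is not stated in the labels, and each p-value therefore rests on a spread that may be technical.

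Actin filaments are built from actin subunits and pulled on by nonmuscle myosin II, a motor of heavy chains that each bind an essential and a regulatory light chain. Tropomyosins lie along the filament and set which motors can use it, the Arp2/3 complex starts branches, and alpha-actinins, filamins and plastins link filaments together. Talin, vinculin, paxillin and zyxin join the filaments to integrins at focal adhesions. In pigment cells, actin also carries melanosomes, moved by myosin Va.

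Values were FPKM, fragment counts scaled to transcript length and to library size, so levels can be set side by side between genes. The sum of FPKM was 292736 and 293481 in resistant libraries and 282602 and 283387 in parental libraries, and true depth is unknown. All 7 pigment cell markers had a value, with MLANA, which encodes a melanosome protein, at 212 and 207 FPKM in resistant libraries and 221 and 211 FPKM in parental libraries. SOX10, a regulator of pigment cell identity, stood at 54.9 and 54.3 FPKM in resistant libraries and 91.8 and 73.3 FPKM in parental libraries. S100B, a calcium-binding protein of pigment and glial cells, stood at 0.773 and 0.963 FPKM in resistant libraries and 2.26 and 2.76 FPKM in parental libraries. Its mean reached 1 FPKM, the level required for testing, through its parental values alone. MITF, the master regulator of pigment cells, stood at 9.64 and 31.8 FPKM in resistant libraries and 35.3 and 37.4 FPKM in parental libraries. The sum over the 7 was 2992 and 2260 FPKM in resistant libraries and 2582 and 2302 FPKM in parental libraries, most of it TYRP1, while 5 of the 7 had a log2 fold change below 0. The other 2 were TYRP1 and TYR. TYRP1 stood at 2143 and 1514 FPKM in resistant and 1490 and 1484 FPKM in parental libraries, without overlap. TYR stood at 177 and 114 FPKM in resistant and 121 and 113 FPKM in parental libraries, with overlap. Across tested genes, log2(FPKM + 1) correlated at 0.945 between the resistant libraries and at 0.971 between the parental libraries, as a description of these libraries. Between a resistant and a parental library it ran from 0.9253 to 0.9515, so the resistant pair was less alike than the closest pair across groups. The pooled SD was 0.378 in resistant and 0.266 in parental libraries. In bulk RNA, fewer cells of a type and less RNA per cell cannot be told apart.

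No member passed the test over all genes. The test was limma on log2(FPKM + 1), with Benjamini-Hochberg adjustment over 10271 genes whose mean reached 1 FPKM, of which 54 were members. The 8 members below that level are described without a test. Over all genes, 6 passed at an adjusted p under 0.05 (0.0584%), 5 of them higher (0.0487%) and 1 lower (0.00974%) in resistant libraries, and the smallest adjusted p of a member was 0.101, for ACTA2. At an unadjusted limma p under 0.05 stood 5 members higher and 3 lower in resistant libraries, 14.8% of the tested members, against 16.2% of all genes (6.06% higher and 10.2% lower). Resistant and parental libraries did not overlap for 28 members, 14 higher and 14 lower, which is 51.9% of those tested against 51.0% of all genes (19.1% higher and 31.8% lower). The log2 fold change was above 0 for 29 of the 54, or 53.7%, against 41.4% of all genes. The median log2 fold change was 0.02 over the tested members and -0.08 over all genes. The shares at an unadjusted p under 0.05 and without overlap were near those of all genes. After median-of-ratios scaling 10 members were higher and 5 lower at that unadjusted p (27.8% against 17.5% of all genes), and after rescaling to a common sum 3 were higher and 5 lower (14.8% against 17.0%). Without resistant replicate 1 the count was 11 higher and 9 lower (37.0% against 35.4% of all genes), and without resistant replicate 2 it was 10 and 5 (27.8% against 21.4%). Without either parental library it was 2 and 2 (7.41%, against 6.81% of all genes without parental replicate 1 and 7.74% without parental replicate 2). For a single gene, the smallest p an exact permutation test allows here is 0.333.

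**Figure D1:**
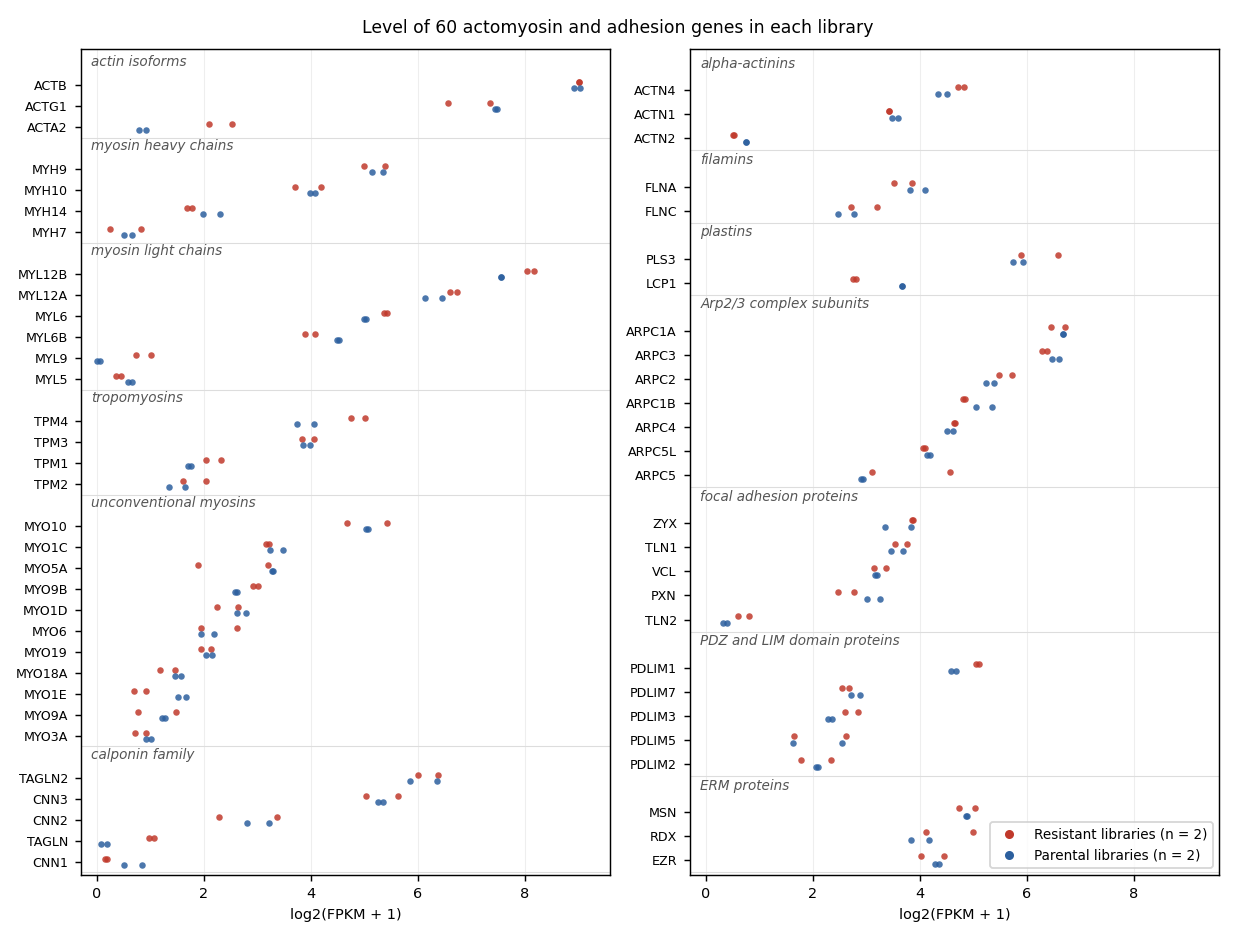
Level of 60 of the 62 genes as log2(FPKM + 1) on the horizontal axis, with 1 point per library, resistant libraries (red, upper row of each gene, n = 2) and parental libraries (blue, lower row, n = 2), grouped by role and ordered by mean level. ACTB and MYL12B had the highest levels, and ACTA2, TPM4 and LCP1 show red and blue points well apart.

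The actin isoforms were led by ACTB, the beta-actin of nonmuscle cells. ACTB stood at 519 and 516 FPKM in resistant libraries and at 520 and 484 FPKM in parental libraries. The groups overlapped, and the log2 fold change was 0.04 ± 0.12 (SE, limma adjusted p = 0.871), with a sign that turned after rescaling to a common sum (-0.01).

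ACTG1, the gamma-actin of nonmuscle cells, stood at 163 and 93.4 FPKM in resistant libraries and at 172 and 179 FPKM in parental libraries. Both resistant libraries were lower, but resistant replicate 1 lay close to the parental level and resistant replicate 2 carried most of the difference. Both genes have many processed copies in the genome (10 pseudogenes named after ACTB and 20 after ACTG1 in the annotation), so their levels are uncertain.

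ACTA2 encodes smooth muscle alpha-actin, which is also made by contractile fibroblasts. It stood at 4.78 and 3.28 FPKM in resistant libraries and at 0.741 and 0.891 FPKM in parental libraries. Both resistant libraries were above both parental ones, and the ratio of the mean FPKM was 4.93. The log2 fold change was 1.45 ± 0.21 (SE, limma adjusted p = 0.101). With the 4 libraries weighted equally, a pseudocount of 1 FPKM and no rescaling, only ACTA2 of 54 tested members reached 1 in size. Of all genes, 3.42% did. Other members reached 1 in size under other settings. With a pseudocount of 0.1 FPKM these were TPM4 (1.02) and MYO1E (-1.32), with the common sum LCP1 (-1.01) and MYO1E (-1.19), with median-of-ratios scaling TPM4 (1.08) and ARPC5 (1.02), and after quantile normalization TPM4 (1.06). Leaving out 1 library gave up to 1.14 for TPM4, up to 1.65 for ARPC5 and down to -1.38 for MYO5A. ACTA2 made up 0.696% and 0.535% of summed actin FPKM in resistant libraries, against 0.107% and 0.134% in parental libraries. With both parental values below 1 FPKM, it passed the filter through its resistant values alone.

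ACTA2 (ENSG00000107796.13_3) lies on the minus strand at chr10:88935074-88991339 in GENCODE release 29 on GRCh38, and overlaps STAMBPL1 and FAS on the other strand. Strand use in counting is not given, so reads of these genes may not have been kept apart. The 250 bases before one of its RefSeq starts are shown because it is the tested member with the largest log2 fold change, with capitals marking GGAATG, a motif of TEAD factors, at bases -183 to -178 from the start (GRCh38.p14, minus strand, chr10:88952774-88953023).
ACTA2: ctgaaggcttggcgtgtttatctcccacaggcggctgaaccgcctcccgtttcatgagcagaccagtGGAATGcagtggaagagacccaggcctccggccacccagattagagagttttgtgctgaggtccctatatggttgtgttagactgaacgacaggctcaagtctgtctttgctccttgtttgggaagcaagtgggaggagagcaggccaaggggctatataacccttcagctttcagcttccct

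Other genes named for smooth muscle lay low or showed the other order. TAGLN, which encodes transgelin (SM22), stood at 1.11 and 0.970 FPKM in resistant libraries and at 0.144 and 0.0582 FPKM in parental libraries. MYL9, the regulatory light chain of smooth muscle and nonmuscle cells, stood at 0.663 and 1.03 FPKM in resistant libraries, was listed at 0 in parental replicate 1 and stood at 0.0479 FPKM in parental replicate 2. CNN1, smooth muscle calponin, stood at 0.114 and 0.138 FPKM in resistant libraries and at 0.426 and 0.806 FPKM in parental libraries. TAGLN and MYL9 thus were higher and CNN1 lower in both resistant libraries, but none of the 3 was tested, since their means over the 4 libraries were below 1 FPKM. No listed gene's higher group mean was under 0.5009 FPKM. TAGLN and MYL9 are therefore listed through their resistant values alone, and CNN1 through its parental values alone. TAGLN overlaps PCSK7 on the other strand.

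Markers of cells that make these proteins were set beside them. Of 9 smooth muscle markers outside the members, 2 had a value, with a summed level of 3.075 and 3.29 FPKM in resistant libraries and 4.15 and 2.965 FPKM in parental libraries, led by NOTCH3, and DES and MYOCD were not analysed here. Of 11 fibroblast markers, 3 had a value, with sums of 9.59 and 7.34 FPKM in resistant libraries and 5.20 and 6.005 FPKM in parental libraries, led by LUM, whose groups overlapped, and DCN and PDGFRA were not analysed here. Both collagen genes of that list stood higher without overlap, COL1A2 at 0.747 and 0.531 FPKM in resistant libraries and 0.00848 and 0.00683 FPKM in parental libraries, and COL1A1 at 1.16 and 1.89 FPKM in resistant libraries and 0.742 and 0.841 FPKM in parental libraries. No listed gene's higher group mean was under 0.5009 FPKM, so COL1A2 is listed through its resistant values alone. COL1A1 passed the filter through its resistant values alone. Of 12 epithelial markers, 5 had a value, with sums of 22.4 and 29.1 FPKM in resistant libraries and 11.25 and 13.1 FPKM in parental libraries. In that list the keratins KRT18 (6.73 and 9.62 FPKM in resistant and 2.67 and 3.26 FPKM in parental libraries) and KRT19 (1.10 and 6.29 FPKM in resistant and 0.205 and 0.287 FPKM in parental libraries) stood higher in both resistant libraries. KRT19 passed the filter through its resistant values alone, mostly that of resistant replicate 2. So did KRT8, at 1.555 and 1.84 FPKM in resistant and 0.252 and 0.364 FPKM in parental libraries. ESRP1 and KRT7 were higher without overlap as well, and KRT7, which was not tested, is listed through its resistant values alone. CDH1 and EPCAM were not analysed here. Of 16 skeletal and cardiac muscle markers, 2 had a value, led by the troponin gene TNNT1 (14.4 and 11.8 FPKM in resistant and 23.5 and 17.4 FPKM in parental libraries). The other, TNNC1, showed the opposite order at 1.07 and 0.498 FPKM in resistant libraries and 0.0815 and 0.351 FPKM in parental libraries. Like COL1A2, TNNC1 is listed through its resistant values alone. The part of these cell types in the actin and transgelin values was not tested.

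The heavy chains of nonmuscle myosin II kept a similar total, 55.1 and 50.8 FPKM in resistant libraries against 58.9 and 53.3 FPKM in parental libraries. MYH9, the heavy chain of myosin IIA, was the most abundant at 40.8 and 31.0 FPKM in resistant libraries and 40.1 and 34.4 FPKM in parental libraries. MYH10, the heavy chain of myosin IIB, stood at 12.1 and 17.3 FPKM in resistant libraries and at 14.8 and 15.9 FPKM in parental libraries. For both genes the parental values lay inside the resistant range, and the sign of their log2 fold changes (-0.06 ± 0.20 SE and -0.08 ± 0.22 SE) turned after median-of-ratios scaling (0.04 and 0.02).

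MYH14, the heavy chain of myosin IIC, stood at 2.24 and 2.46 FPKM in resistant libraries and at 3.97 and 2.98 FPKM in parental libraries. The groups did not overlap, with a log2 fold change of -0.41 ± 0.20 (SE, limma adjusted p = 0.37). MYH7, a heavy chain of heart and slow muscle, lay under 1 FPKM in all 4 libraries.

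The regulatory light chains, whose phosphorylation switches myosin II on, summed to 395 and 360 FPKM in resistant libraries against 273 and 258 FPKM in parental libraries. Most of this was MYL12B, at 289 and 263 FPKM in resistant libraries and 186 and 188 FPKM in parental libraries. The groups did not overlap, with a log2 fold change of 0.56 ± 0.13 (SE, limma adjusted p = 0.174). Its neighbour MYL12A stood at 106 and 95.8 FPKM in resistant libraries and at 86.5 and 69.7 FPKM in parental libraries, also without overlap (0.37 ± 0.17 SE, limma adjusted p = 0.354). The pair lie side by side on chromosome 18, MYL12A at chr18:3247481-3256236 and MYL12B at chr18:3261479-3278431 on the plus strand, and are close paralogs, so how reads were divided between them is uncertain. MYL12B held 73.1% and 73.1% of the regulatory light chain FPKM in resistant libraries and 68.3% and 72.9% in parental libraries, while MYL9 held at most 0.286% in any library. Processed pseudogenes are also named after MYL12A and MYL12B, so the levels of both are uncertain.

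The essential light chains had nearly the same sum in both groups, 56.3 and 55.8 FPKM in resistant libraries against 52.6 and 53.7 FPKM in parental libraries, but a different make-up. MYL6, the common essential light chain of nonmuscle and smooth muscle myosin, stood at 40.4 and 42.0 FPKM in resistant libraries and at 31.1 and 31.7 FPKM in parental libraries. MYL6B, its slow muscle and nonmuscle relative, stood at 15.9 and 13.8 FPKM in resistant libraries and at 21.5 and 22.0 FPKM in parental libraries. The pair thus stood in opposite order, with no overlap for either gene.

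MYL6B held 28.3% and 24.7% of the pair's FPKM in resistant libraries, against 40.9% and 40.9% in parental libraries. The log2 fold change was 0.38 ± 0.15 (SE) for MYL6 and -0.52 ± 0.17 (SE) for MYL6B, with limma adjusted p-values of 0.305 and 0.257. The genes overlap on the same strand, MYL6B at chr12:56152256-56159647 and MYL6 at chr12:56158161-56163496, and MYL6 has 5 named pseudogenes, so how reads were assigned in this region is uncertain.

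The tropomyosins summed to 49.9 and 48.7 FPKM in resistant libraries against 30.3 and 34.6 FPKM in parental libraries. TPM4, a tropomyosin of stress fibres and other nonmuscle filaments, made up most of the difference, at 31.3 and 25.9 FPKM in resistant libraries and 12.4 and 15.8 FPKM in parental libraries. The groups did not overlap, and the ratio of the mean FPKM was 2.03 (log2 fold change 0.98 ± 0.20 SE, limma adjusted p = 0.158). TPM4 (ENSG00000167460.14_4, chr19:16067021-16103005, plus strand) held 62.8% and 53.1% of the tropomyosin FPKM in resistant libraries and 40.8% and 45.6% in parental libraries.

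TPM3, another tropomyosin of nonmuscle cells and of slow muscle, stood at 13.3 and 15.8 FPKM in resistant libraries and at 13.5 and 14.8 FPKM in parental libraries, with overlap. Its share of the family was 26.8% and 32.4% in resistant libraries and 44.6% and 42.9% in parental libraries. TPM1, which gives stress fibre isoforms, stood at 3.14 and 3.98 FPKM in resistant libraries and at 2.27 and 2.40 FPKM in parental libraries, without overlap (0.45 ± 0.19 SE, limma adjusted p = 0.329). TPM2 stood at 2.08 and 3.10 FPKM in resistant libraries and at 2.13 and 1.56 FPKM in parental libraries, with overlap. TPM3 has several named pseudogenes, among them TPM3P9, which is annotated as transcribed, so its level is uncertain.

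**Figure D2:**
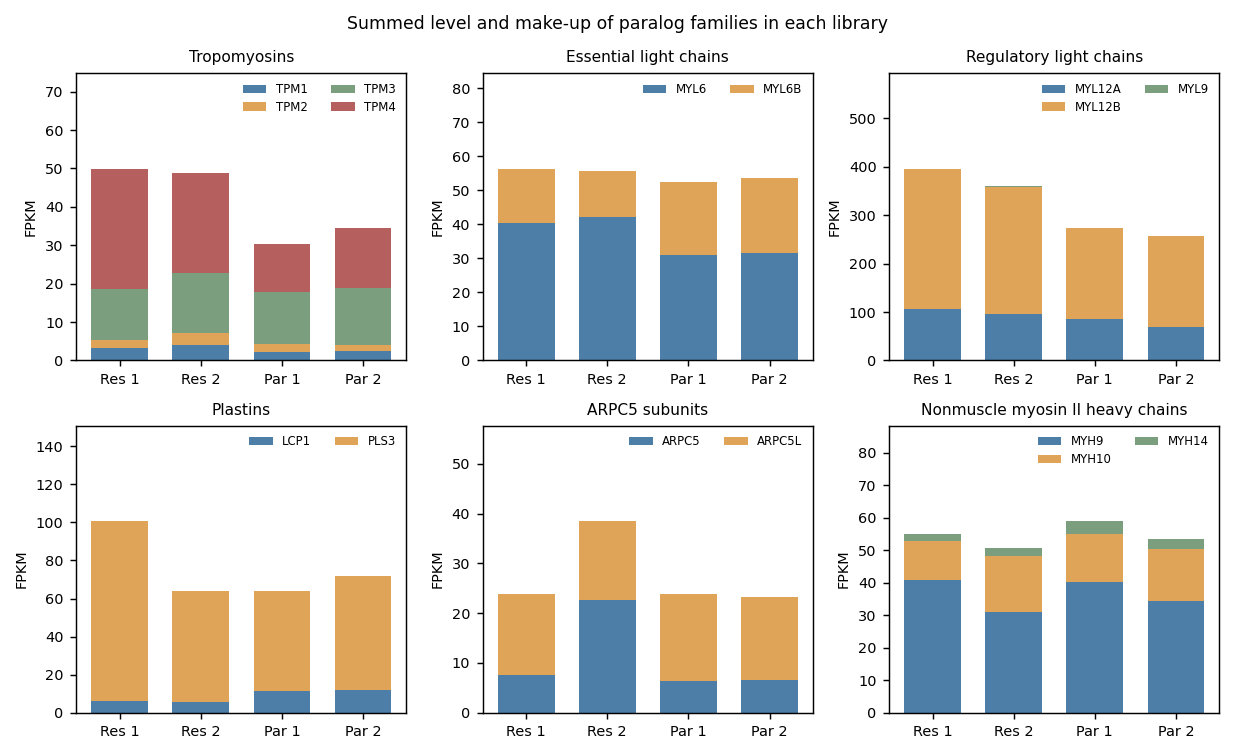
FPKM of the members of 6 paralog families, stacked, in resistant replicates 1 and 2 (Res 1, Res 2) and parental replicates 1 and 2 (Par 1, Par 2). The tropomyosin sum was 49.9 and 48.7 FPKM in resistant against 30.3 and 34.6 FPKM in parental libraries, and MYL6B held a smaller part of the essential light chains in the resistant ones.

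Of the unconventional myosins, which carry membranes and cargo along actin, 12 had a value and 11 were tested, 4 above 0 and 7 below 0 in log2 fold change. Their summed level was 72.5 and 79.0 FPKM in resistant libraries and 78.4 and 78.7 FPKM in parental libraries. MYO1E, a class I myosin that links actin to membranes in endocytosis and adhesion, stood at 0.884 and 0.627 FPKM in resistant libraries and at 2.16 and 1.86 FPKM in parental libraries. The resistant values lay below both parental ones (log2 fold change -0.78 ± 0.17 SE, limma adjusted p = 0.165, with -1.32 at a pseudocount of 0.1 FPKM and -1.19 after rescaling to a common sum). With both resistant values below 1 FPKM, it passed the filter through its parental values alone, and it overlaps LDHAL6B and FAM81A on the other strand.

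MYO10, a filopodial motor, was the most abundant of them, at 24.7 and 42.0 FPKM in resistant libraries and 31.7 and 32.5 FPKM in parental libraries. The resistant libraries lay on either side of the parental ones. MYO5A, the motor that holds melanosomes in the actin-rich periphery of melanocytes, stood at 8.19 and 2.73 FPKM in resistant libraries and at 8.77 and 8.69 FPKM in parental libraries. Here resistant replicate 1 was near the parental level and resistant replicate 2 far below it, and the log2 fold change of -0.73 ± 0.43 (SE) had a limma adjusted p of 0.452.

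MYO9B, a class IX myosin, stood at 7.11 and 6.58 FPKM in resistant libraries and at 5.12 and 4.97 FPKM in parental libraries, without overlap (0.37 ± 0.18 SE, limma adjusted p = 0.359). MYO1C, a class I myosin of membrane traffic, stood at 8.27 and 7.92 FPKM in resistant libraries and at 10.2 and 8.40 FPKM in parental libraries. MYO6, which walks towards the minus end of actin, stood at 2.87 and 5.15 FPKM in resistant and 2.87 and 3.56 FPKM in parental libraries. MYO1D, MYO3A, MYO9A, MYO18A and MYO19 ranged from 0.637 to 5.94 FPKM over all libraries, and of these 5 only MYO3A, which was not tested, had groups that did not overlap.

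The plastins bundle filaments into tight arrays. LCP1, the plastin of leukocytes that many tumour cells also express, stood at 6.0 and 5.72 FPKM in resistant libraries and at 11.7 and 11.7 FPKM in parental libraries. Each pair of libraries lay close together and the ratio of means was 0.501, with a log2 fold change of -0.89 ± 0.17 (SE, limma adjusted p = 0.141). LCP1 (ENSG00000136167.13_3) lies at chr13:46125920-46211871 on the minus strand.

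PLS3, the plastin of nonblood cells, was far more abundant at 94.6 and 58.3 FPKM in resistant libraries and 52.2 and 59.98 FPKM in parental libraries, with overlap. LCP1 made up 5.97% and 8.93% of plastin FPKM in resistant libraries and 18.2% and 16.4% in parental libraries. Of 10 leukocyte markers, 3 had a value, with sums of 8.28 and 7.499 FPKM in resistant libraries and 21.5 and 16.5 FPKM in parental libraries. Most of this was CD68, a lysosomal glycoprotein (7.24 and 4.97 FPKM in resistant and 20.9 and 15.7 FPKM in parental libraries). The other 2 were low and did not share its order, with CORO1A at 0.746 and 0.975 FPKM in resistant libraries and 0.388 and 0.386 FPKM in parental libraries, and CD79A at 0.301 and 1.56 FPKM in resistant libraries and 0.158 and 0.382 FPKM in parental libraries. With no listed gene's higher group mean under 0.5009 FPKM, CORO1A and CD79A are listed through their resistant values alone. PTPRC and ITGB2 were not analysed here. The part of such cells in the LCP1 value was not tested.

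Among the other cross-linkers, ACTN4, a nonmuscle alpha-actinin, stood at 25.3 and 27.4 FPKM in resistant libraries and at 21.8 and 19.3 FPKM in parental libraries, without overlap (0.34 ± 0.17 SE, limma adjusted p = 0.37). ACTN1, the other nonmuscle alpha-actinin, stood at 9.75 and 9.69 FPKM in resistant libraries and at 11.1 and 10.1 FPKM in parental libraries. ACTN4 thus held 71.3% and 73.0% of alpha-actinin FPKM in resistant libraries and 64.9% and 64.1% in parental libraries.

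FLNA, the main filamin of nonmuscle cells, stood at 13.4 and 10.5 FPKM in resistant libraries and at 16.2 and 13.1 FPKM in parental libraries, with overlap. FLNC, the muscle filamin, stood at 8.23 and 5.62 FPKM in resistant libraries and at 5.81 and 4.57 FPKM in parental libraries, also with overlap. FLNC held 34.7% and 32.4% of filamin FPKM in resistant libraries and 23.4% and 22.3% in parental libraries.

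In the calponin family, TAGLN2, a transgelin of nonmuscle cells, stood at 82.2 and 62.9 FPKM in resistant libraries and at 80.9 and 56.8 FPKM in parental libraries. CNN3, the acidic calponin, stood at 48.6 and 31.8 FPKM in resistant libraries and at 39.8 and 37.4 FPKM in parental libraries. CNN2, the neutral calponin, stood at 9.32 and 3.85 FPKM in resistant libraries and at 5.98 and 8.31 FPKM in parental libraries, and has 11 named pseudogenes. The groups overlapped for all 3.

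**Figure D3:**
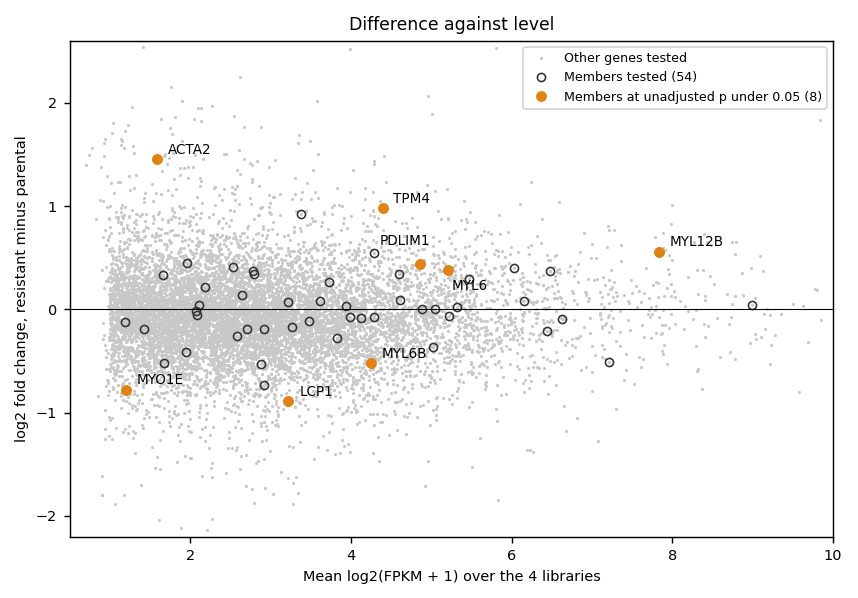
Log2 fold change (resistant minus parental) against the mean log2(FPKM + 1) over the 4 libraries, for the genes tested (grey, of which 30 lie outside the plotted range), the 54 tested members (open circles) and the 8 members at an unadjusted limma p under 0.05 (orange). ACTA2 lies highest and LCP1 lowest of the members.

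The Arp2/3 complex had 7 subunit genes with a value, from 6.44 FPKM for ARPC5 to 104 FPKM for ARPC1A, and 6 of the 7 had groups that did not overlap, 3 higher and 3 lower, where 51.0% of all genes had such groups. ARPC1A stood at 104 and 86.3 FPKM in resistant libraries and at 101 and 102 FPKM in parental libraries. ARPC3 stood at 82.3 and 76.8 FPKM in resistant libraries and at 88.2 and 96.8 FPKM in parental libraries (-0.21 ± 0.14 SE). ARPC2 stood at 44.0 and 52.2 FPKM in resistant libraries and at 41.0 and 36.8 FPKM in parental libraries (0.29 ± 0.17 SE), and ARPC1B, the alternative to ARPC1A, at 27.1 and 28.0 FPKM in resistant and 39.6 and 32.1 FPKM in parental libraries. ARPC1A and ARPC1B both overlap a further coding gene, AC004922.1, on the same strand. Processed pseudogenes are named after ARPC1A, ARPC1B and ARPC3, so the levels of these genes are uncertain. The limma adjusted p-values of ARPC1A, ARPC1B, ARPC2 and ARPC3 ran from 0.37 to 0.787.

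ARPC5 stood at 7.62 and 22.7 FPKM in resistant libraries and at 6.44 and 6.66 FPKM in parental libraries. Resistant replicate 1 was just above the parental libraries and resistant replicate 2 far above them, so the log2 fold change of 0.92 ± 0.48 (SE, limma adjusted p = 0.4) rested on 1 library, and was 0.19 without resistant replicate 2. Its alternative, ARPC5L, stood at 16.2 and 15.8 FPKM in resistant libraries and 17.4 and 16.7 FPKM in parental libraries. ARPC5 therefore held 32.0% and 58.9% of the pair's FPKM in resistant libraries, against 27.1% and 28.6% in parental libraries.

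**Figure D4:**
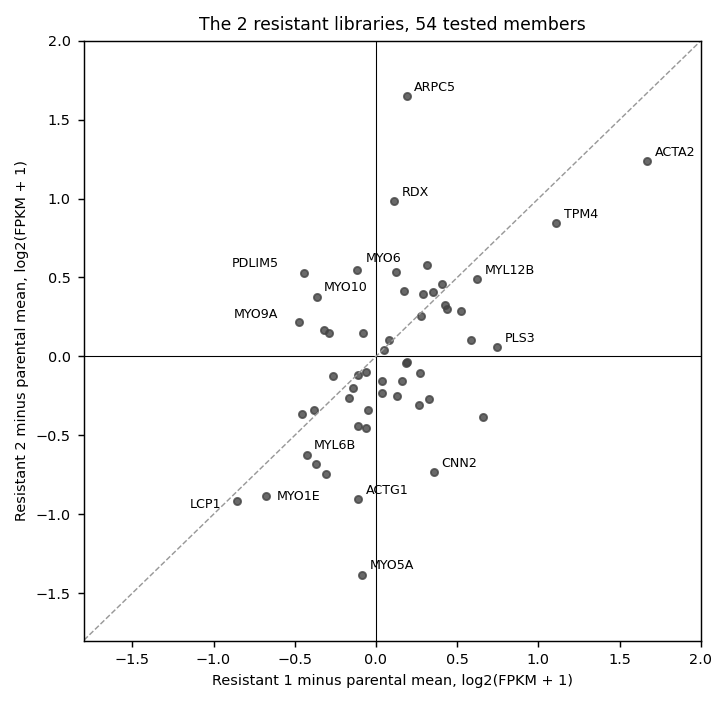
For the 54 tested members, log2(FPKM + 1) of resistant replicate 1 minus the parental mean (horizontal) and of resistant replicate 2 minus the parental mean (vertical), with a dashed line where both are equal. ACTA2, TPM4, MYL12B, LCP1 and MYO1E lie near the line, and ARPC5, RDX, MYO5A and ACTG1 lie near the vertical axis, where 1 resistant library carried the difference. Both axes use the same parental mean.

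At focal adhesions, PXN, the adaptor paxillin, stood at 5.84 and 4.52 FPKM in resistant libraries and at 8.61 and 7.13 FPKM in parental libraries. Neither resistant value reached the parental ones (-0.52 ± 0.21 SE, limma adjusted p = 0.312). ZYX, the tension-sensitive LIM protein zyxin, stood at 13.6 and 13.4 FPKM in resistant libraries and at 13.2 and 9.24 FPKM in parental libraries, where parental replicate 1 lay next to the resistant values.

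TLN1, which encodes the integrin activator talin, stood at 12.5 and 10.6 FPKM in resistant libraries and at 11.8 and 10.02 FPKM in parental libraries. VCL, which encodes vinculin, stood at 9.33 and 7.84 FPKM in resistant libraries and at 8.22 and 7.95 FPKM in parental libraries. The groups overlapped for both. TLN2 lay under 1 FPKM in all 4 libraries.

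The PDZ and LIM domain proteins bind alpha-actinin on stress fibres. PDLIM1 stood at 32.0 and 33.3 FPKM in resistant libraries and at 23.1 and 24.7 FPKM in parental libraries, without overlap (0.43 ± 0.16 SE, limma adjusted p = 0.282). PDLIM3 stood at 6.21 and 5.12 FPKM in resistant libraries and at 4.16 and 3.86 FPKM in parental libraries, without overlap (0.41 ± 0.19 SE, limma adjusted p = 0.358). PDLIM7 showed the other order, at 4.83 and 5.42 FPKM in resistant libraries and 6.41 and 5.61 FPKM in parental libraries. PDLIM1 has 4 named pseudogenes, so its level is uncertain.

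The ERM proteins tie filaments to the plasma membrane. MSN (moesin) stood at 31.8 and 25.5 FPKM in resistant libraries and at 28.6 and 28.2 FPKM in parental libraries, and EZR (ezrin) at 15.3 and 21.0 FPKM in resistant and 19.5 and 18.4 FPKM in parental libraries. RDX (radixin) stood at 16.4 and 30.8 FPKM in resistant libraries and at 13.3 and 17.1 FPKM in parental libraries, with resistant replicate 2 apart from the other 3 libraries. The groups overlapped for all 3 genes.

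Other genes of actin regulation were read from 4 lists, chosen with earlier results of these data known. These held 129 genes in all, of which 105 were tested. None passed over all genes, and 9 were higher and 9 lower at an unadjusted limma p under 0.05 (8.57% each, against 6.06% and 10.2% of all genes). Of 29 tested genes of ROCK signalling, 4 were higher and 0 lower at that p, with a median log2 fold change of 0.12 (-0.08 over all genes). ROCK2, a kinase that acts on the myosin phosphatase and regulatory light chain, stood at 15.1 and 18.1 FPKM in resistant libraries and at 9.01 and 10.2 FPKM in parental libraries (0.73 ± 0.19 SE, limma adjusted p = 0.196). DAPK3, a kinase that also acts on the regulatory light chain, stood at 6.45 and 5.21 FPKM in resistant libraries and at 3.44 and 3.11 FPKM in parental libraries (0.67 ± 0.19 SE, limma adjusted p = 0.222). The other 2 of the 4 were MRTFA and ARHGAP35. ROCK1, the paralog of ROCK2, stood at 11.4 and 35.8 FPKM in resistant and 16.1 and 17.15 FPKM in parental libraries, with overlap. The groups also overlapped for RHOA, and RHOC was lower in both resistant libraries.

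Of 34 tested focal adhesion kinases and adaptors, 3 were higher and 5 lower at an unadjusted limma p under 0.05. Of all genes, 6.06% were higher and 10.2% lower at that p. The median log2 fold change was -0.04 over these 34 and -0.08 over all genes. LPP, a zyxin relative, stood at 4.97 and 5.71 FPKM in resistant libraries and at 1.42 and 1.45 FPKM in parental libraries (1.38 ± 0.18 SE, limma adjusted p = 0.0788). The adaptor SORBS2 stood at 2.39 and 3.02 FPKM in resistant libraries and at 0.461 and 0.554 FPKM in parental libraries, so that it passed the filter through its resistant values alone. PTK2, the focal adhesion kinase, stood at 7.86 and 5.43 FPKM in resistant libraries and at 9.88 and 11.03 FPKM in parental libraries (-0.60 ± 0.22 SE, limma adjusted p = 0.294).

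Of 20 tested partners and activators of the Arp2/3 complex, 1 was higher and 1 lower at that unadjusted p (median -0.03, against -0.08 over all genes). They were WASL, the activator N-WASP, at 27.8 and 28.98 FPKM in resistant libraries and 20.4 and 21.2 FPKM in parental libraries, and CORO1C, a coronin, at 17.3 and 13.6 FPKM in resistant and 29.7 and 27.9 FPKM in parental libraries. Of 22 other bundling, capping and severing proteins, 1 was higher and 3 lower (median -0.10). Beside both lists, 6.06% of all genes were higher and 10.2% lower at that unadjusted p. SVIL, which encodes supervillin, stood at 3.95 and 4.68 FPKM in resistant libraries and at 1.98 and 1.93 FPKM in parental libraries. The filopodial bundler FSCN1 stood at 33.4 and 16.7 FPKM in resistant libraries and at 48.0 and 39.8 FPKM in parental libraries, and SYNPO, which encodes synaptopodin, at 0.845 and 0.636 FPKM in resistant and 2.13 and 1.98 FPKM in parental libraries. SYNPO passed the filter through its parental values alone.

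**Figure D5:**
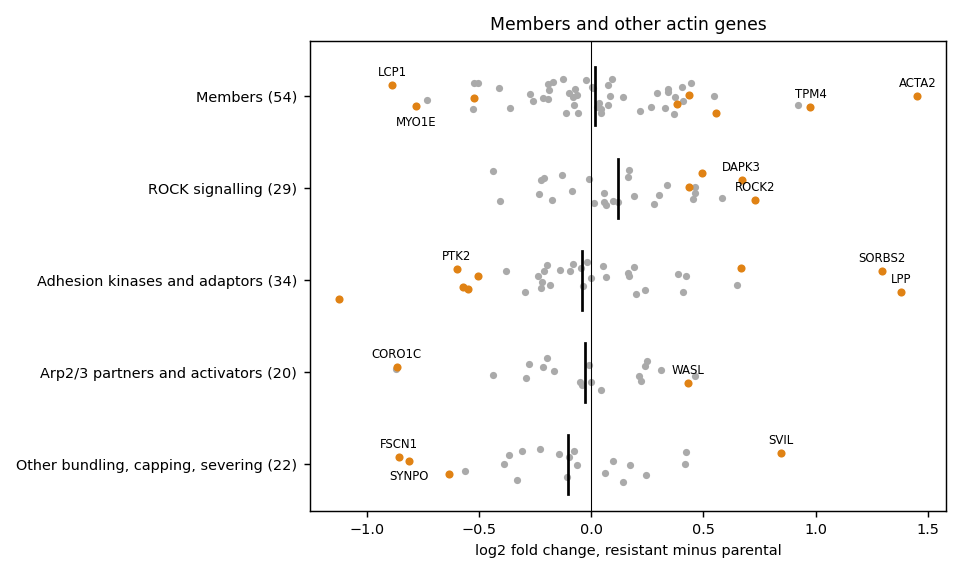
Log2 fold change (resistant minus parental) of the tested members and of the tested genes of the 4 other lists, 1 point per gene, with a black line at each list's median and orange points for an unadjusted limma p under 0.05. Of the 29 points of the ROCK list 4 orange ones lie above 0 and 0 below. Over all genes, 6.06% were higher and 10.2% lower at that p.

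Actin and adhesion genes are known targets of serum response factor, which binds the CArG box. RefSeq windows of 250 bases before to 50 after a start (GRCh38.p14) were found for 54 of the 62 members, 79 windows in all. The 8 without an entry included ACTB, ARPC1B, MYH7, MYL9, PDLIM2 and TAGLN. The box, on either strand and with no mismatch allowed, was found in 6 of the 79 windows (7.59%), against 1.19% of 13804 windows of the measured genes and 1.29% of all 35116 windows. GGAATG on either strand was in 9 windows (11.4%, against 11.2% of the measured genes' windows and 14.0% of all windows), and TGANTCA, the AP-1 motif, in 7 (8.86%, against 4.8% and 7.71%). No match of one motif overlapped a match of another in the members. Such matches are descriptions of the sequence. With 1 mismatch allowed, a search added after the data were seen, the box was in 18 member windows (22.8%), against 14.8% of the measured genes' windows and 18.9% of all windows. The ACTA2 stretch holds 2 such near matches, at -121 to -112 and -71 to -62.

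The 6 genes with an exact CArG box did not share a direction. Their log2 fold changes were 0.98 for TPM4, -0.11 for ACTN1, -0.19 for CNN2, -0.28 for FLNA, -0.51 for ACTG1 and -0.78 for MYO1E, and none passed over all genes. Their boxes are shown with flanking bases, capitals marking the box, so that the 2 genes with the largest differences can be set beside the other 4. Positions of the stretches on GRCh38.p14 are chr19:16067325-16067414 (TPM4, plus strand), chr14:68977688-68977777 (ACTN1, minus), chr19:1026479-1026568 (CNN2, plus), chrX:154374709-154374738 (FLNA, minus), chr17:81512874-81512903 (ACTG1, minus) and chr15:59372883-59372912 (MYO1E, minus).
TPM4: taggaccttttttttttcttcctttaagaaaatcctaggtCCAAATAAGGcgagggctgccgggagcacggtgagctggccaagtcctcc
ACTN1: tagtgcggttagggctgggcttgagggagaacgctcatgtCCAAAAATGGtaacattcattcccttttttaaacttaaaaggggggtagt
CNN2: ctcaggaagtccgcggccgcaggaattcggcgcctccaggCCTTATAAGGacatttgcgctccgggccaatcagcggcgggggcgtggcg
FLNA: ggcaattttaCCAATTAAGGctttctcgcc
ACTG1: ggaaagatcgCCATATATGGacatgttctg
MYO1E: gctgagttctCCATTTATGGacagattgcc
Counted from the start, the box lay at -173 to -164 in TPM4, -171 to -162 in ACTN1, -94 to -85 in FLNA and ACTG1, -89 to -80 in CNN2 and -31 to -22 in MYO1E. Only 30 bases are given for FLNA, ACTG1 and MYO1E, whose boxes lie in an exon of release 29. Which start each library used was not measured.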

How the data were processed

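RNA of 2 resistant and 2 parental libraries of 92.1 was sequenced from dUTP-stranded libraries, per the labels' protocols. The authors deposited FPKM, per the file headers, with 1 value per gene and library. Genome build hg38 is given in the submitters' processing notes. For aligner, FPKM program, annotation and strand use, the sources used here state nothing. No gene's higher group mean was under 0.5009 FPKM. Of 11650 identifiers, 11596 were found in GENCODE release 29.

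Depth is unknown. An exact 0 may be a failed estimate. FPKM were transformed as log2(FPKM + 1), which understates changes of low genes, filtered at a mean of at least 1 FPKM and compared with limma 3.58.1 in R 4.3.3 (variance trend, two-sided, Benjamini-Hochberg at 0.05). The procedure was tested on simulated data. Python 3.11.15 was used for tables and figures.

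Members and lists were chosen with earlier results of these data known. The rule for naming took members at an unadjusted p under 0.05, the 2 most abundant of each role, and up to 2 genes a direction of each other list. It named 30 members and 19 others. A further 13 members were named after their values were seen. Values were also given for genes outside this rule, among them MITF, TYRP1, COL1A1 and ROCK1. Those genes were not followed through the alternative settings below. Promoter sequences are from RefSeq. Results for some genes are not reported here.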

Additional observations from a re-analysis of the deposited data

How the results depend on the processing

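No member passed over all genes under any of the 13 alternatives. Over all genes, limma called 5 higher and 1 lower. It called 3 higher with a pseudocount of 0.1, median-of-ratios scaling, quantile normalization or library weights, and 3 lower after rescaling to a common sum. Leaving out 1 library gave 0 to 19 higher and 0 to 13 lower. Members at an unadjusted limma p under 0.05 numbered 5 higher and 3 lower, against 3 and 5 with the common sum, 10 and 5 with median-of-ratios scaling and 9 and 5 with quantile normalization (25.9% of members against 17.6% of all genes). Leaving out 1 library gave 2 to 11 higher and 2 to 9 lower, 7.41% to 37.0% of members against 6.81% to 35.4% of all genes. The members' median of 0.017 was 0.118 with median-of-ratios scaling, where that of all genes was 0.009. The median of all genes was -0.079 as reported, -0.138 with the common sum and -0.012 with quantile normalization. Rescaling to the common sum raised all values, which makes the pseudocount smaller beside them. The cause of the other shifts was not tested.

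Replicate numbers are shared between groups, but the deviations of same-numbered libraries correlated at -0.071 across genes, so the numbers were taken as names only. With the replicate number as a block, 3 members were higher and 3 lower at an unadjusted limma p under 0.05, 11.1% against 14.4% of all genes.

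The 8 members at an unadjusted p under 0.05 as reported kept their sign in each alternative that gave them a value, which the minimum of 5 FPKM did not for ACTA2 and MYO1E. Over the 62 named genes that were followed, 34 of 791 gene and alternative pairs reversed, in 14 genes. With the common sum the log2 fold change was -0.01 for ACTB, -0.02 for CNN3 and TPM3, -0.05 for MSN and -0.04 for MYO10. With median-of-ratios scaling it was 0.01 for ARPC1A, 0.02 for MYH10, 0.04 for MYH9 and 0.05 for NOTCH3, and with quantile normalization 0.01 for MYH10 and 0.03 for NOTCH3. Leaving out 1 library gave ranges of -0.25 to 0.13 for MYH9, -0.36 to 0.38 for MYO10, -0.19 to 0.16 for NOTCH3, -0.08 to 0.15 for TPM3, -0.01 to 0.10 for ACTB, -0.73 to 0.36 for CNN2, -0.27 to 0.32 for CNN3, -0.15 to 0.16 for MSN, -0.17 to 0.33 for TAGLN2, -0.04 to 0.19 for TLN1, -0.32 to 0.17 for MYH10, -0.04 to 0.19 for VCL, -0.23 to 0.04 for ARPC1A and -0.12 to 0.55 for MYO6. Depth limits genes near 1 FPKM to an unknown extent.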
